A study of Mus musculus with 10 samples.

Results

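The genes described here make cholesterol and fatty acids, or control those pathways, in regulatory T cells of the mouse spleen. The 33 genes were named as a list, and a gene was measured where the probe table gave its symbol to a probe set. This held for 32 of the 33, out of 19938 genes on the arrays. Acat2, the cytosolic thiolase at the start of the sterol pathway, had no such probe set. The list has 3 branches. The sterol enzymes had 17 of 18 genes measured, the regulators and sterol transporters had 7 of 7, and the fatty acid genes had 8 of 8.

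Cells make cholesterol from acetyl-CoA by way of mevalonate, isoprenoid diphosphates, squalene and lanosterol. The transcription factors encoded by Srebf1 and Srebf2 are held in the endoplasmic reticulum by Scap and Insig proteins while sterols are plentiful, and switch on sterol and fatty acid enzymes after release. Fatty acids are built from citrate-derived acetyl-CoA by Acly, Acaca and Fasn, then desaturated and elongated. T cells that become activated are known to draw on both pathways, and regulatory T cells are known to need mevalonate products for their suppressive function.

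The cells were CD4+ and carried a red fluorescent reporter at Foxp3, the lineage factor of regulatory T cells. All came from untreated female C57BL/6 mice of 9 to 14 weeks. Surface CD62L (a lymph node homing receptor), CD69 (an early activation marker) and Klrg1 (a receptor of terminally differentiated cells) divided them. FR3 Klrg1+ cells (CD62Llo CD69+ Klrg1+) had 1 array, FR3 Klrg1- cells (CD62Llo CD69+ Klrg1-) had 4, FR2 cells (CD62Llo CD69- Klrg1-) had 2 and FR1 cells (CD62Lhi CD69- Klrg1-) had 2. A further array carried conflicting labels and entered no comparison. Arrays of 1 label are called biological replicates in the labels, which do not say whether each came from 1 mouse or from pooled mice. The comparisons ask how expression differs as the cells lose CD62L, gain CD69 and gain Klrg1.

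The 9 grouped arrays fell into sets that no label names. FR1, FR2 and FR3 Klrg1- replicates 1 and 2 formed the first set, and FR3 Klrg1+ with FR3 Klrg1- replicates 3 and 4 formed the second. Arrays of the same set correlated at 0.972 to 0.992 over all 35556 probe sets, and arrays of different sets at 0.901 to 0.921. The FR3 Klrg1- arrays alone, which share a label, correlated at only 0.918 to 0.921 across the sets. Every group comparison below was therefore made within a set. The 7 T cell and regulatory T cell markers averaged 11.1 to 11.7 log2 units on the grouped arrays. Lists of B cell, macrophage, dendritic cell, NK cell, neutrophil and platelet markers averaged between 4.05 and 5.72. The 25th percentile of an array lay at 4.94 to 5.10 and its median at 6.15 to 6.31. Single markers in these lists lay higher than their list. The B cell marker Cd79b had group means of 7.55 to 7.82, above the array medians. The 2 CD8 T cell markers averaged 6.57 to 7.19, and the 1 erythroid marker measured read 5.03 to 6.24.

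In FR3 Klrg1- cells, several sterol enzymes were lower than in FR1 cells. Of the 17 measured, 5 fell (Idi1, Sqle, Hmgcs1, Mvd and Lss) and 0 rose, where 3.79% of all genes fell and 4.39% rose. The cut for every call was an adjusted p of 0.05 from limma, with Benjamini-Hochberg adjustment over all genes. The sterol median was -0.32 on the log2 scale, against 0.02 for all genes. The log2 difference was below 0 for 14 of the 17, as it was for 46.6% of all genes. Both FR3 Klrg1- values lay below both FR1 values for 13 of the 17, a pattern seen in 23.6% of all genes. Fewer cells of a type and less RNA per cell cannot be told apart in such bulk samples.

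**Figure D1:**
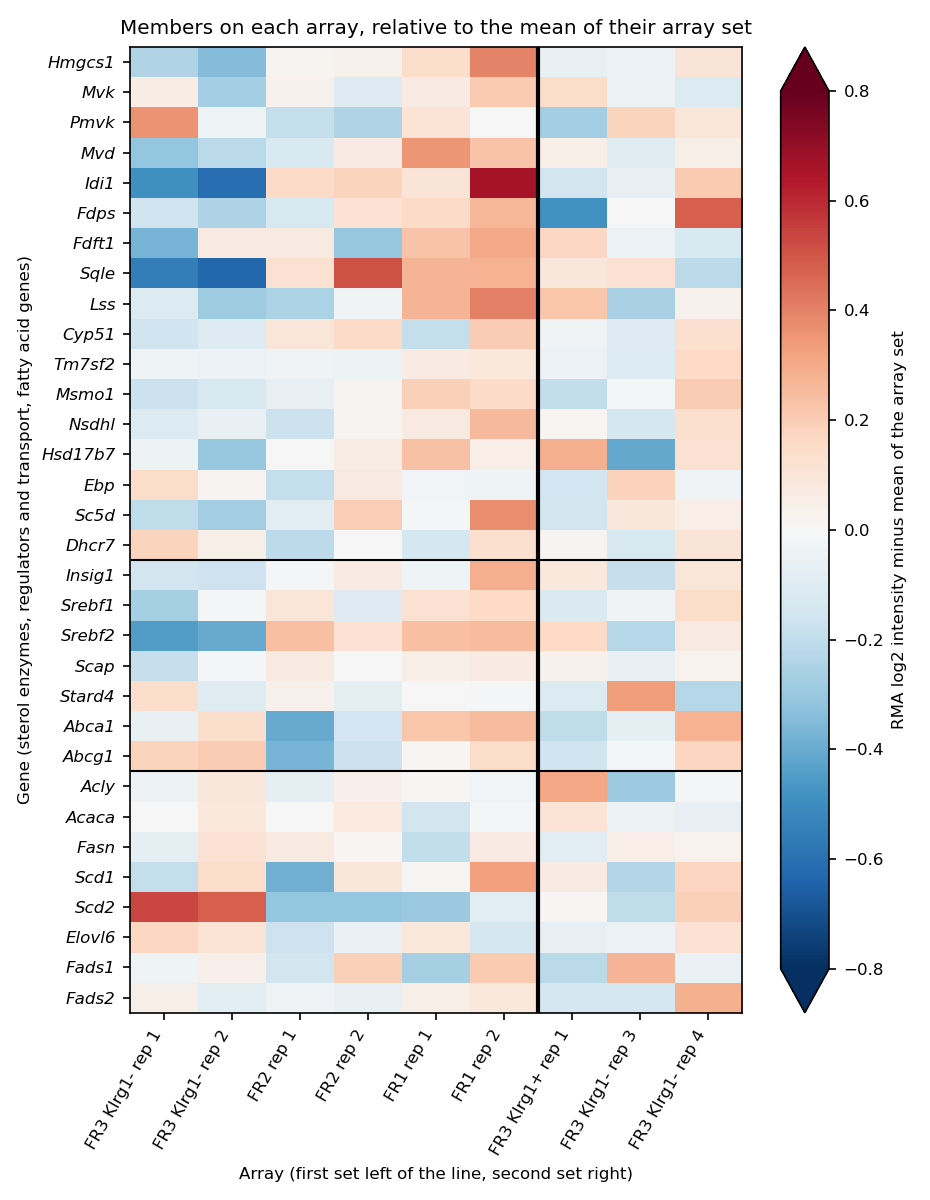
Each row is a measured gene, each column a grouped array, and colour is the log2 intensity minus that gene's mean over the arrays of the same set, with the first set left of the thick line. In the first set the Idi1, Sqle and Srebf2 rows are below their mean on both FR3 Klrg1- arrays, and the Scd2 row is above it.

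Idi1 encodes the isomerase that turns isopentenyl diphosphate into dimethylallyl diphosphate. Its log2 intensity was 7.0 and 6.89 in FR3 Klrg1- cells, against 7.60 and 8.16 in FR1 cells. The groups did not overlap, although the FR1 pair lay apart. The difference was -0.93 ± 0.17 (SE, 2 arrays each) with a 95% interval of -1.30 to -0.57 and an adjusted p of 0.00194 by limma, so that Idi1 fell by 47.7%. Its second probe set gave -0.96. Idi1 was the only member still past the threshold when all 4 FR3 Klrg1- arrays were pooled without regard to the set. The second set holds no array grouped as FR1, so the pooled difference includes the gap between the sets. For Idi1 the second set's FR3 Klrg1- arrays read lower, at 6.31 and 6.58, which pushes the pooled difference further down.

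Sqle encodes squalene epoxidase, the first oxygen-dependent step of sterol synthesis. It measured 6.83 and 6.76 in FR3 Klrg1- cells, against 7.65 and 7.66 in FR1 cells. Both pairs were tight and stood clearly apart. Sqle fell by 45.1%, with a log2 difference of -0.86 ± 0.15 (adjusted p = 0.0017 by limma) and a 95% interval of -1.19 to -0.53. With the sets pooled, its adjusted p became 0.127 by limma. For Sqle the FR3 Klrg1- mean was higher in the second set (7.13) than in the first (6.79), which makes the pooled difference smaller.

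The other 3 enzymes that fell sit at early and middle steps of the pathway. Hmgcs1, the synthase that commits acetoacetyl-CoA to mevalonate, measured 7.87 and 7.77 in FR3 Klrg1- cells, against 8.26 and 8.51 in FR1 cells. Mvd, the decarboxylase that yields isopentenyl diphosphate, measured 6.88 and 6.97 in FR3 Klrg1- cells, against 7.54 and 7.42 in FR1 cells. Lss, the cyclase that forms lanosterol, measured 6.53 and 6.35 in FR3 Klrg1- cells, against 6.90 and 7.04 in FR1 cells. None of the 3 overlapped between the groups. Their log2 differences were -0.56 ± 0.13 for Hmgcs1, -0.55 ± 0.13 for Mvd and -0.53 ± 0.15 for Lss, with adjusted p of 0.0148, 0.0149 and 0.0328 by limma. These calls were fragile. Hmgcs1 was lost without FR1 replicate 2 (adjusted p = 0.182 by limma) or either FR3 Klrg1- array of the first set (0.0647 and 0.159). Mvd and Lss were lost without any 1 of the 4 arrays compared, with adjusted p by limma of 0.0507 to 0.148 and 0.0782 to 0.294.

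The bases before the start of these genes are shown because the 5 enzymes moved the same way. RefSeq promoter entries were at hand for 25 of the 33 members, without Sqle. They run 5′ to 3′ on the gene's strand in build GRCm38.p6 and are shown up to just before the gene's start. The Lss window has 210 bases and the others 250, because bases of the Lss entry that lie inside the gene were left out. The shares below were counted over 250 bases of each entry. Capitals mark matches to CCAAT (or ATTGG, its other strand) and to TCACNCCAC, a letter pattern of sterol response elements, searched on both strands. Idi1 is chr13:8885356-8885605 on the plus strand, Hmgcs1 is chr13:119690101-119690350 on the plus strand, Mvd is chr8:122443423-122443672 on the minus strand and Lss is chr10:76531355-76531564 on the plus strand.
Idi1: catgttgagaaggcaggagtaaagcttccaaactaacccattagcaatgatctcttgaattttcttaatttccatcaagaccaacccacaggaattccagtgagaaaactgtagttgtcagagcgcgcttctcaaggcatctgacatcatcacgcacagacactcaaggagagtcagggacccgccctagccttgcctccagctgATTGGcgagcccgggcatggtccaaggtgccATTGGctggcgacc
Hmgcs1: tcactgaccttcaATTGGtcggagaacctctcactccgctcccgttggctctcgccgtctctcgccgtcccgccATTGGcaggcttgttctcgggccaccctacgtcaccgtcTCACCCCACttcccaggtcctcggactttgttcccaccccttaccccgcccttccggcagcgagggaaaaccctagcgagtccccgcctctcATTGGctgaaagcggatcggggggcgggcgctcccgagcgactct
Mvd: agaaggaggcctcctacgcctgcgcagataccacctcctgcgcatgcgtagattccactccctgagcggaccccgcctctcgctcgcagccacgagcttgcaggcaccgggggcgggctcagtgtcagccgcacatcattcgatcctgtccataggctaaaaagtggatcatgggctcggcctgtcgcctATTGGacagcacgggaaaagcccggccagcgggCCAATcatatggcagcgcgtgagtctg
Lss: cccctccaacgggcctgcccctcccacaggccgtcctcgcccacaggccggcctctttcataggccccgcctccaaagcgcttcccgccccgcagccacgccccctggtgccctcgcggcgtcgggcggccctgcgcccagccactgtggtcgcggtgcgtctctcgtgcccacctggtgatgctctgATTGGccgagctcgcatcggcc
CCAAT was present in all 4 windows. It stood in 61.3% of the 31 promoters listed for the members and in 33.8% of all 32851 promoters in the table. TCACNCCAC matched once, in Hmgcs1, at -137 to -129 from the start. It was found in 1 of the 31 member promoters and in 1.05% of all promoters. Further patterns were searched and are not marked. A stricter form of the sterol response element, that of the first described sites, matched 0 of the 31 member promoters and 0.0731% of all promoters. The E-box, another short letter pattern, stood in 19.4% of the 31 member promoters and in 6.02% of all promoters. It matched in 0 of the 4 genes shown. A match is only a match of letters in these windows.

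The remaining 12 sterol enzymes did not pass the threshold. Farnesyl diphosphate and squalene are made by Fdps and Fdft1, whose log2 differences were -0.41 and -0.42 (adjusted p = 0.158 and 0.165 by limma). Among the late enzymes that turn lanosterol into cholesterol, Sc5d was at -0.42, Msmo1 at -0.32, Hsd17b7 at -0.31 and Nsdhl at -0.25. Cyp51 and Tm7sf2 were also below 0, as was the mevalonate kinase gene Mvk at -0.24. Only Pmvk, Ebp and Dhcr7 were above 0, at 0.11, 0.11 and 0.12. Dhcr7 encodes the reductase of the last step. At an unadjusted p under 0.05, 9 of the 17 enzymes were counted, and 18.2% of all genes.

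**Figure D2:**
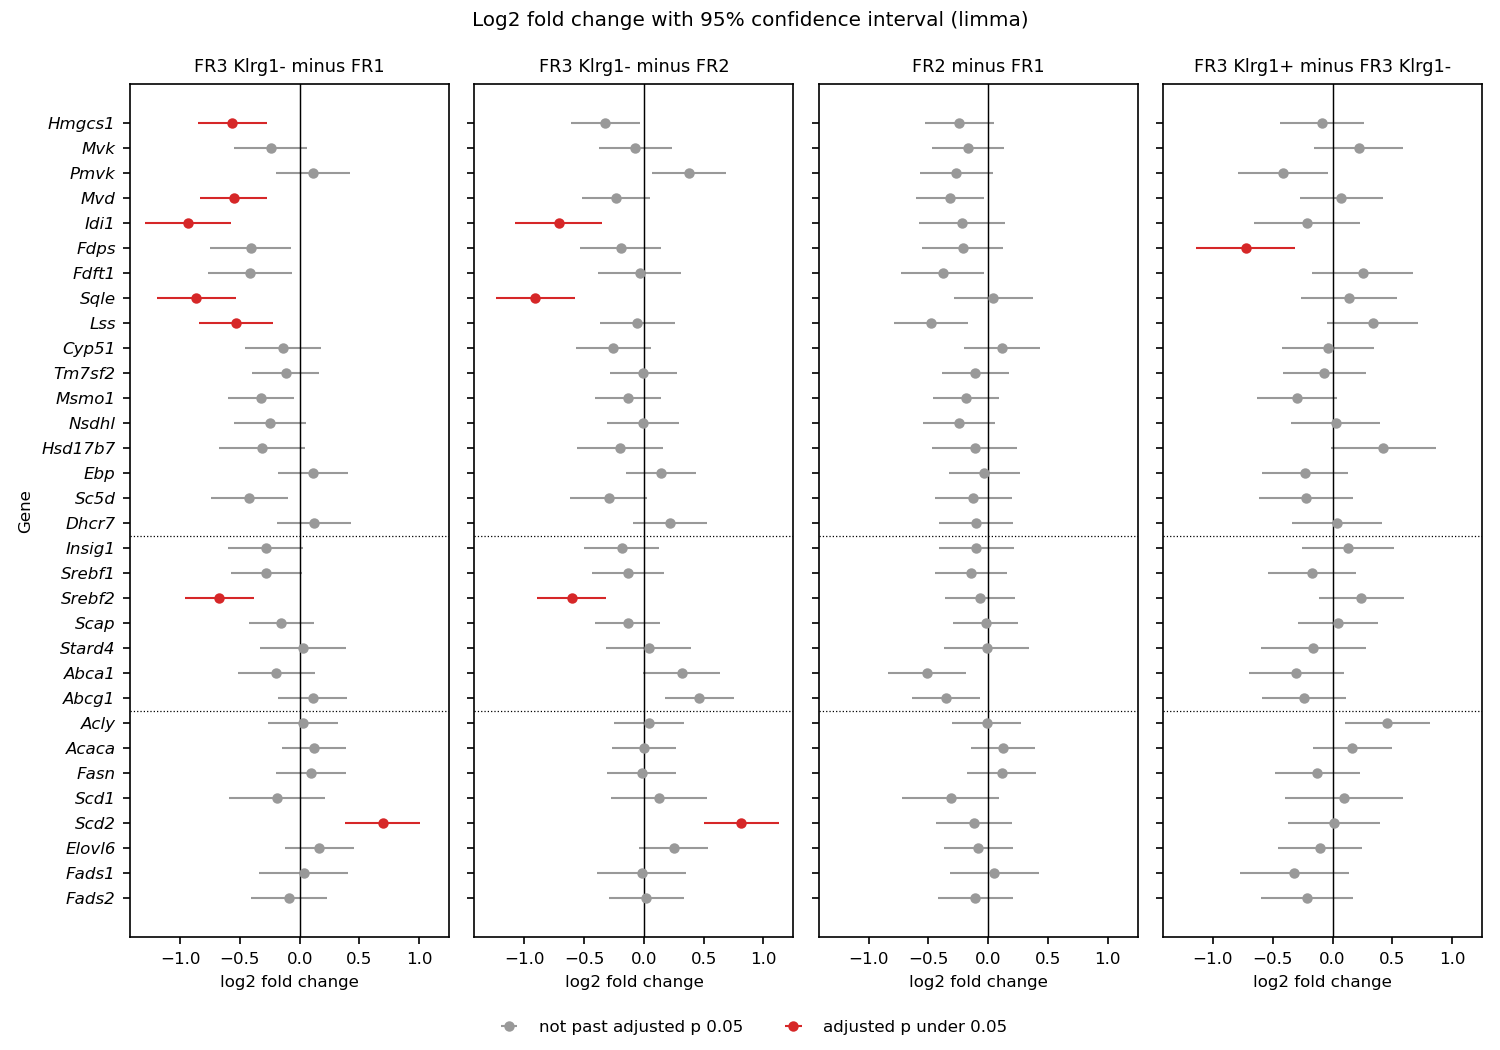
Points are log2 differences with 95% intervals from limma for every measured member, by branch, in the comparisons of FR3 Klrg1- with FR1, FR3 Klrg1- with FR2, FR2 with FR1 and FR3 Klrg1+ with FR3 Klrg1-. Red points passed the adjusted p of 0.05 and grey points did not: 7, 4, 0 and 1 members in that order.

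Among the regulators and transporters, Srebf2 was the 1 of 7 that fell, where 3.79% of all genes fell. It encodes the main transcription factor of sterol synthesis. Srebf2 measured 9.17 and 9.21 in FR3 Klrg1- cells, against 9.86 and 9.87 in FR1 cells. The replicates almost coincided within each group. The log2 difference was -0.67 ± 0.14 (adjusted p = 0.00445 by limma), and Srebf2 fell by 37.3%. Without FR3 Klrg1- replicate 1 its adjusted p was 0.0515 by limma.

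The partners of Srebf2 did not pass. Insig1, which retains the factors in the endoplasmic reticulum, was at -0.28 ± 0.15 (adjusted p = 0.335 by limma). Srebf1, which mainly drives fatty acid genes, was at -0.28, and the escort protein gene Scap was at -0.15. The sterol carrier gene Stard4 was at 0.03, and the efflux transporter genes Abca1 and Abcg1 were at -0.20 and 0.11. The median of the 7 was -0.20.

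In the fatty acid branch, 1 of 8 genes rose and 0 fell, where 4.39% of all genes rose and 3.79% fell. The branch median was 0.06. The gene that rose was Scd2, a stearoyl-CoA desaturase that makes monounsaturated fatty acids. Scd2 measured 9.41 and 9.36 in FR3 Klrg1- cells, against 8.58 and 8.79 in FR1 cells. The groups did not overlap. Its log2 difference was 0.70 ± 0.15 with a 95% interval of 0.38 to 1.01 (adjusted p = 0.00639 by limma), a rise of 61.9%. Scd2 was not called without FR1 replicate 1 (0.0889) or FR3 Klrg1- replicate 1 (0.065), by adjusted p from limma. With the sets pooled its difference turned to -0.31 (adjusted p = 0.828 by limma), and the second set's FR3 Klrg1- arrays read 7.18 and 7.58.

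The core enzymes of fatty acid synthesis had differences near 0 between FR3 Klrg1- and FR1 cells, and none passed. The log2 difference was 0.03 for Acly, the citrate lyase that supplies acetyl-CoA (95% interval -0.26 to 0.32). It was 0.12 for Acaca, the acetyl-CoA carboxylase (-0.15 to 0.39), and 0.09 for Fasn, the fatty acid synthase (-0.20 to 0.38). These intervals bound the change without showing that it is 0. The elongase gene Elovl6 was at 0.17, and the desaturase genes Fads1 and Fads2 were at 0.03 and -0.09. Scd1 was dim, at 4.27 to 5.03 on the grouped arrays and under the 25th percentile of the array on 8 of the 9, and was at -0.19.

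**Figure D3:**
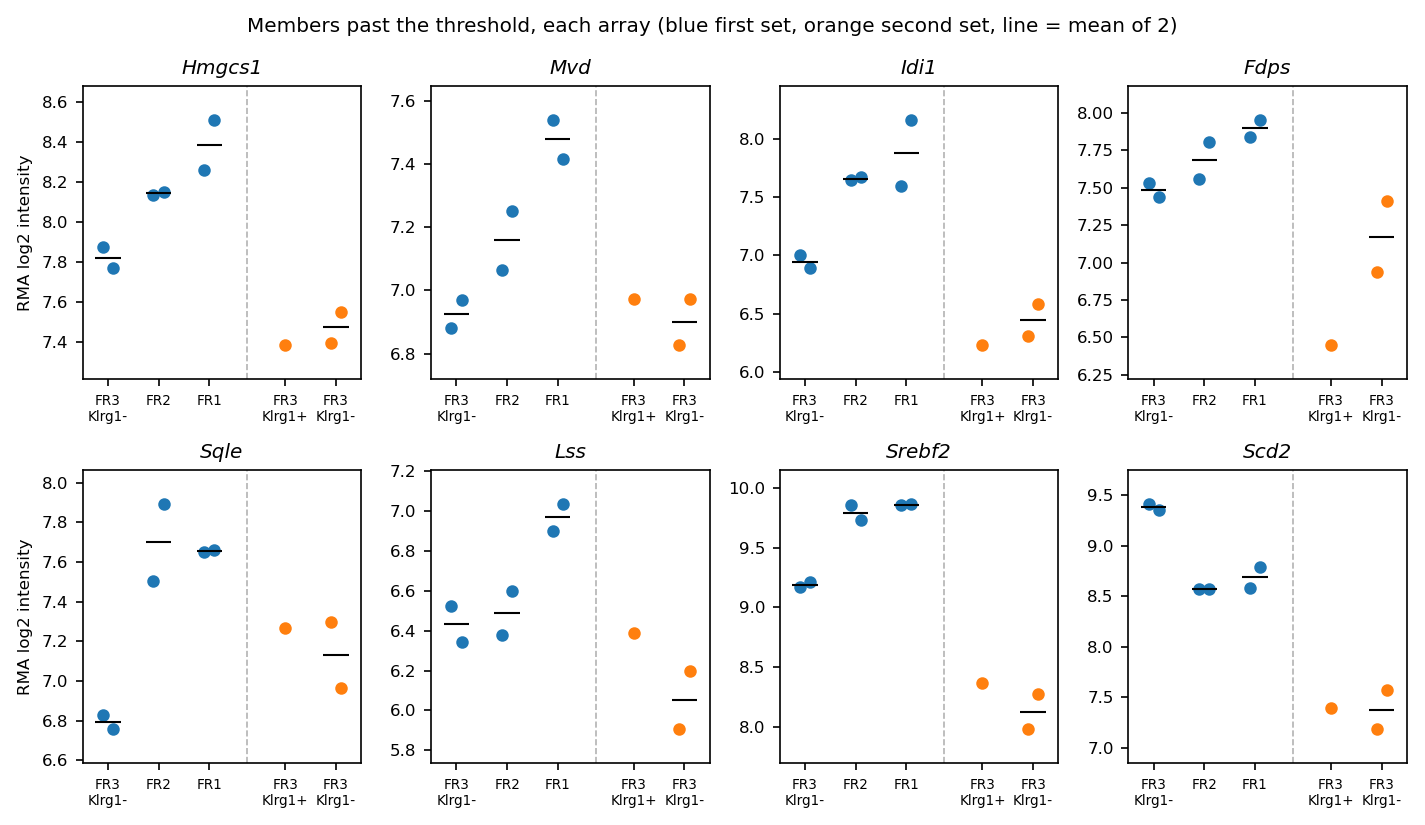
Log2 intensity of the 8 members past the threshold in any of the 4 group comparisons, 1 point per array and a line at the mean of each pair, with the first array set left of the dashed line and the second right of it. Idi1, Sqle, Srebf2, Hmgcs1, Mvd and Lss lie lower in FR3 Klrg1- than in FR1 arrays of the first set, and Scd2 lies higher.

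FR3 Klrg1- cells were next set against FR2 cells, which have the same low CD62L but lack CD69. This comparison shares its FR3 Klrg1- arrays with the one above. Sqle and Idi1 fell, 2 of 17 sterol enzymes, and 0 rose, where 1.94% of all genes fell and 2.81% rose. Sqle measured 6.83 and 6.76 in FR3 Klrg1- cells, against 7.51 and 7.89 in FR2 cells, a log2 difference of -0.91 ± 0.15 (adjusted p = 0.00264 by limma). Idi1 measured 7.0 and 6.89 in FR3 Klrg1- cells, against 7.65 and 7.67 in FR2 cells, a difference of -0.71 ± 0.17 (adjusted p = 0.0246 by limma). Neither gene overlapped between the groups. The sterol median was -0.13, and 14 of the 17 values were below 0, against 50.8% of all genes. Both FR3 Klrg1- values lay below both FR2 values for 9 of the 17, and for 24.2% of all genes.

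Srebf2 and Scd2 also differed from FR2 cells. Srebf2, at 9.17 and 9.21 in FR3 Klrg1- cells against 9.86 and 9.73 in FR2 cells, was lower by a log2 difference of -0.61 ± 0.14 (adjusted p = 0.0177 by limma). Scd2, at 9.41 and 9.36 in FR3 Klrg1- cells against 8.57 and 8.57 in FR2 cells, was higher by 0.82 ± 0.15 (adjusted p = 0.0042 by limma). Hmgcs1 was at -0.32, the phosphomevalonate kinase gene Pmvk at 0.38, Abca1 at 0.32 and Abcg1 at 0.46, and these did not pass (adjusted p = 0.0652 by limma for Abcg1). The medians were -0.13 for the regulators and transporters and 0.03 for the fatty acid genes.

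The calls against FR2 cells depended on single arrays. Idi1 and Srebf2 lost theirs when any 1 of the 4 arrays was left out, with adjusted p by limma of 0.109 to 0.18 and 0.0647 to 0.197. Sqle was not called without FR2 replicate 2 (adjusted p = 0.0518 by limma), nor Scd2 without FR2 replicate 1 (0.0556) or FR3 Klrg1- replicate 1 (0.0583). With the sets pooled, 0 of the 4 calls remained and Scd2 turned to -0.19 (adjusted p = 0.923 by limma).

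Between FR2 and FR1 cells, which differ by CD62L, none of the 32 members passed in limma, where 2.3% of all genes fell and 1.96% rose. At an unadjusted p under 0.05 there were 5 of the 32 members and 17.2% of all genes. The sterol median was -0.19, and 15 of the 17 sterol values lay below 0, against 45.2% of all genes. Both FR2 values lay below both FR1 values for 10 of the 17, and for 23.1% of all genes. The nearest to the threshold were Abca1, at -0.51 ± 0.15 (adjusted p = 0.0739 by limma), and Lss, at -0.48 ± 0.15 (0.0822). Abca1 measured 7.06 and 7.31 in FR2 cells, against 7.68 and 7.71 in FR1 cells, and Lss measured 6.38 and 6.60 in FR2 cells, against 6.90 and 7.04 in FR1 cells. Mvd was at -0.32, Fdft1 at -0.38 and Abcg1 at -0.36. All 7 regulators and transporters were below 0, with a median of -0.10, and the fatty acid median was -0.05. Fitted on the first set alone, or without dim genes, 2 members were called here.

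Whether the step from FR2 to FR3 Klrg1- differed from the step from FR1 to FR2 was tested as a contrast of its own, chosen after the data were seen. It called 533 genes, or 2.67% of all, and 0 of the 32 members in limma. At an unadjusted p under 0.05 there were 6 members and 14.8% of all genes. Sqle was at -0.95 ± 0.27 (adjusted p = 0.0774 by limma), Scd2 at 0.93 (0.0694) and Abcg1 at 0.82 (0.079). Srebf2 was at -0.54 (0.295) and Idi1 at -0.49 (0.484). For no member were the steps shown to differ.

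Some markers of other cells moved in the same comparisons. Over all genes, 4.39% rose and 3.79% fell between FR3 Klrg1- and FR1 cells. Against FR2 cells these shares were 2.81% and 1.94%. Between FR3 Klrg1- and FR1 cells, 1 of 3 NK cell markers rose (Klrb1c, by 1.15 on the log2 scale), with a list median of 0.32. Of 5 B cell markers, 1 fell (Cd79a, at -0.68), while the median of the 5 was 0.16. Of the 2 CD8 T cell markers, 1 fell (Cd8b1, at -0.55), with a median of -0.44. None of the macrophage, dendritic cell, neutrophil, erythroid or platelet markers passed in limma. Of the 7 T cell markers, Cd3e, Cd4, Ctla4 and Ikzf2 rose by 0.49 to 0.75 and Il2ra was at -0.47, all past the threshold. Among 9 cell cycle genes measured, 2 rose (Top2a by 0.56 and Tyms by 0.60) and the list median was 0.17. Against FR2 cells, Klrb1c was higher by 1.09, and of the cell cycle genes Mcm5 was higher by 0.54 and Mki67 was at -0.67. Of the 7 T cell markers, 1 was higher than in FR2 cells. Between FR2 and FR1 cells, 1.96% of all genes rose and 2.3% fell. There 2 of the 9 cell cycle genes rose, with a list median of 0.24, while 1 T cell marker rose and 1 fell. No marker of other cells passed between FR2 and FR1 cells in limma. The part of these markers in the lipid gene results was not tested.

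Klrg1+ cells were compared with Klrg1- cells of FR3 in the second array set, with 1 array against 2 and the lone array assumed to vary like the rest. Of the sterol enzymes, 1 of 17 fell and 0 rose, where 2.82% of all genes fell and 2.14% rose. The gene was Fdps, whose farnesyl diphosphate feeds both sterols and protein prenylation. Fdps measured 6.45 in FR3 Klrg1+ cells, against 6.94 and 7.41 in FR3 Klrg1- cells, with the lone array below both. The log2 difference was -0.73 ± 0.19 with a 95% interval of -1.14 to -0.31 (adjusted p = 0.0455 by limma). The call held in 6 of 15 alternatives. It was lost without FR3 Klrg1- replicate 4, where the difference was -0.49 (adjusted p = 0.111 by limma), and without any 1 of the first set's arrays, which serve only to estimate the spread (0.0611 to 0.0661).

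None of the 7 regulators and transporters and none of the 8 fatty acid genes passed between FR3 Klrg1+ and FR3 Klrg1- cells in limma, and 3 of the 32 members had an unadjusted p under 0.05, as did 19.9% of all genes. The medians were -0.04 for the sterol enzymes, -0.16 for the regulators and transporters and -0.04 for the fatty acid genes. Acly measured 8.45 in FR3 Klrg1+ cells, against 7.85 and 8.12 in FR3 Klrg1- cells, a log2 difference of 0.46 ± 0.17 (adjusted p = 0.132 by limma). Hsd17b7 was at 0.42, Lss at 0.33 and Pmvk at -0.41. Lss was also among the members called between FR3 Klrg1- and FR1 cells. Of the others, Idi1 was at -0.22, Sqle at 0.14, Srebf2 at 0.24 and Scd2 at 0.02, the last with an interval of -0.37 to 0.40. Hmgcs1 measured 7.38 in FR3 Klrg1+ cells, against 7.40 and 7.55 in FR3 Klrg1- cells. Mvd measured 6.97 in FR3 Klrg1+ cells, against 6.83 and 6.97 in FR3 Klrg1- cells. Single markers of other cells passed here as well, where 2.14% of all genes were higher and 2.82% lower. Of 5 macrophage and monocyte markers, 1 was higher in FR3 Klrg1+ cells (Fcgr1, by 0.68), while the median of the 5 was -0.43. Of 6 dendritic cell markers, 1 was higher (Flt3, by 0.91), with a median of 0.15. Of 3 NK cell markers, 1 was lower (Klrb1c, at -0.66), with a median of 0.06. The part of these markers was not tested.

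The same label gave different levels in the array sets. FR3 Klrg1- replicates 3 and 4 minus replicates 1 and 2 gave 3 members higher and 16 lower of 32, where 18.9% of all genes were higher and 19.3% lower. The widest gaps were those of Scd2, Abcg1, Acly and Fasn, while Acaca and Stard4 were at -0.03 and -0.06. The branch medians were -0.33 for the sterol enzymes, -0.78 for the regulators and transporters and -0.26 for the fatty acid genes. Scd2 was at -2.0 ± 0.15, with 7.18 and 7.58 in replicates 3 and 4, against 9.41 and 9.36 in replicates 1 and 2. Abcg1 was at -1.86 ± 0.13, with 7.87 and 8.06 in replicates 3 and 4, against 9.81 and 9.83 in replicates 1 and 2. Acly was at -1.82 ± 0.14 and Fasn at -1.22 ± 0.14. Each of these gaps exceeded any difference of that gene between groups of the same set.

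The other members with lower values in replicates 3 and 4 were spread over the branches. Srebf1 was at -1.14, Srebf2 at -1.06, Insig1 at -0.78, Scap at -0.60 and Abca1 at -0.53, so that 6 of 7 regulators and transporters were lower. Among the sterol enzymes the late-step genes Dhcr7 (-1.12), Msmo1 (-1.08), Ebp (-0.93) and Sc5d (-0.66) were lower, with Idi1 (-0.50), Mvk (-0.41) and Lss (-0.38). Fdft1, Cyp51 and Nsdhl were higher, at 0.84, 0.47 and 0.40. Leaving out 1 of the 4 arrays could end the calls of Mvk, Idi1, Lss, Cyp51, Nsdhl and Abca1, with adjusted p up to 0.345 by limma. The second probe set of Fdft1 did not give that call (0.18, adjusted p = 0.469 by limma). The cause of the gap between the sets was not tested. It bears on the results because no array grouped as FR1 or FR2 lies in the second set. The array with conflicting labels, which carries the markers of FR1 and correlated best with the second set, entered no comparison. The lower Idi1, Sqle and Srebf2 and the higher Scd2 in FR3 Klrg1- cells were therefore each measured in the first set only.

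Related lipid genes outside the 33 came from 4 lists, with 45 genes measured. Between FR3 Klrg1- and FR1 cells, 1 of 8 other sterol and isoprenoid genes fell (Fntb), as did 1 of 9 regulators of the sterol-sensing pathways (Mylip). Of 16 other fatty acid synthesis and elongation genes, 1 rose (Hacd3) and 1 fell (Acss2), and 0 of 12 fatty acid oxidation genes passed in limma, 3 of them having an unadjusted p under 0.05. Of all genes, 4.39% rose and 3.79% fell in this comparison, and 18.2% had an unadjusted p under 0.05 in limma.

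Acss2, the cytosolic synthetase that makes acetyl-CoA from acetate, differed most among the lipid genes that fell. It measured 7.11 and 7.42 in FR3 Klrg1- cells, 7.84 and 8.10 in FR2 cells and 8.72 and 8.88 in FR1 cells, with no overlap between any of the 3 groups. The log2 difference was -1.54 ± 0.15 for FR3 Klrg1- minus FR1 (adjusted p = 5.99e-06 by limma), -0.70 ± 0.15 for FR3 Klrg1- minus FR2 (0.0121) and -0.84 ± 0.15 for FR2 minus FR1 (0.00419). Hacd3, a dehydratase of fatty acid elongation, ran the other way. It measured 10.51 and 10.56 in FR3 Klrg1- cells, 9.63 and 9.47 in FR2 cells and 9.05 and 9.24 in FR1 cells. Its difference was 1.39 ± 0.13 for FR3 Klrg1- minus FR1 (adjusted p = 4.83e-06 by limma) and 0.98 ± 0.13 for FR3 Klrg1- minus FR2 (0.000372). With the sets pooled, Hacd3 was at 0.59 against FR1 (adjusted p = 0.579 by limma), and of all calls in these lists only those of Acss2 and Fntb against FR1 were kept. These pooled values include the gap between the sets. In the second and first set, the FR3 Klrg1- means were 6.72 and 7.26 for Acss2, 6.09 and 6.19 for Fntb and 8.95 and 10.53 for Hacd3.

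**Figure D4:**
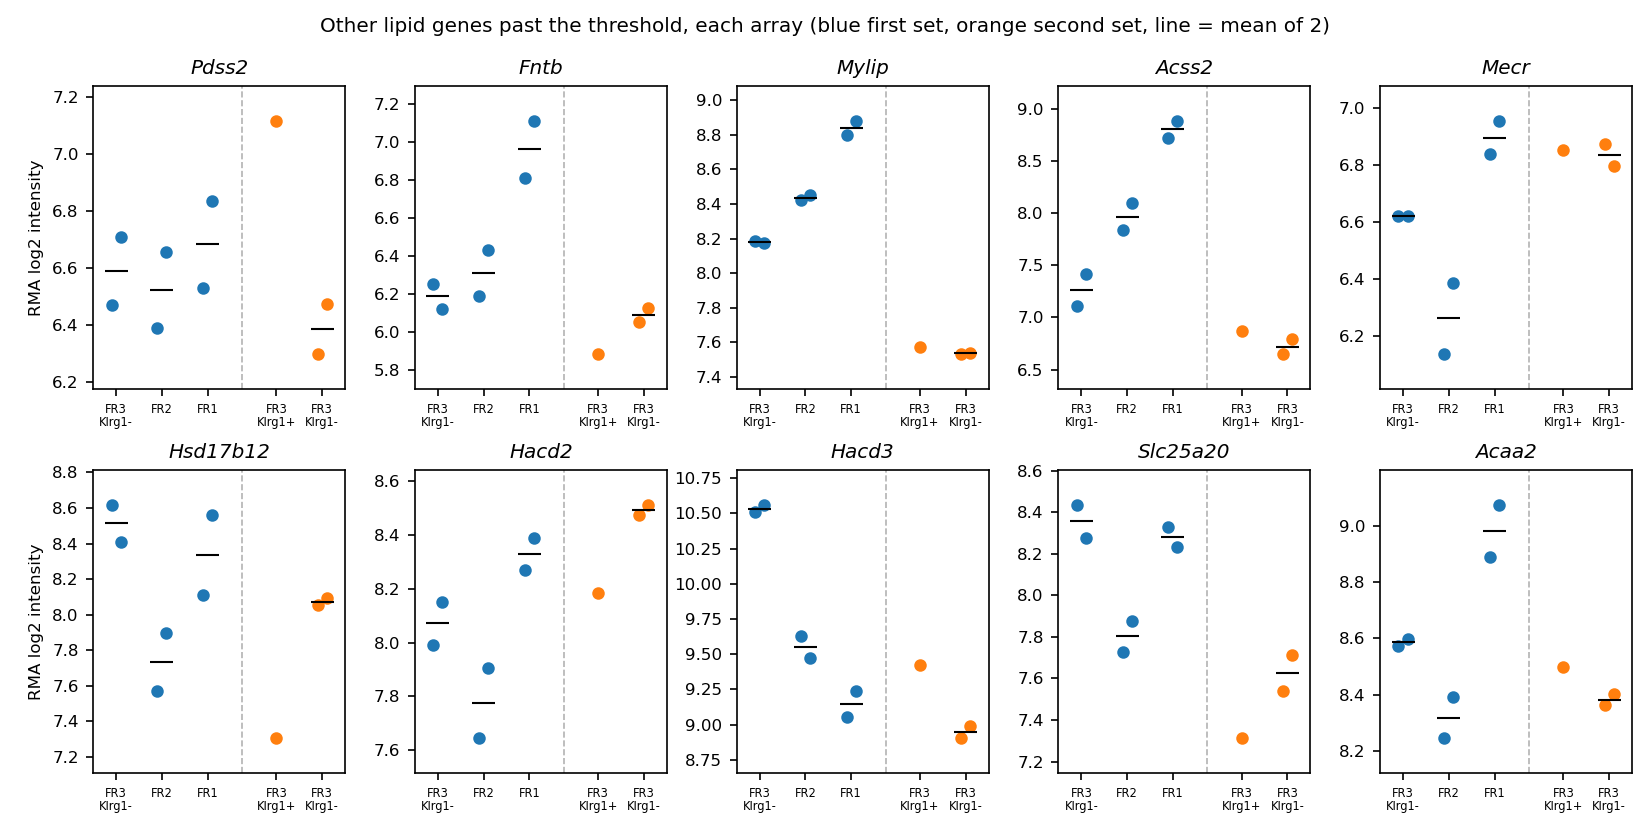
Log2 intensity of the related lipid genes past the threshold in at least 1 of the 4 group comparisons, 1 point per array, with the first array set left of the dashed line and the second right of it. Acss2 is lowest and Hacd3 highest in the FR3 Klrg1- arrays among the 3 groups of the first set.

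Fntb, the beta subunit of the farnesyltransferase that uses isoprenoids to modify proteins, measured 6.25 and 6.12 in FR3 Klrg1- cells, against 6.81 and 7.11 in FR1 cells. Its log2 difference was -0.77 ± 0.14 (adjusted p = 0.00228 by limma), and without FR1 replicate 2 the adjusted p was 0.0509. Mylip, a ubiquitin ligase that degrades lipoprotein receptors, measured 8.19 and 8.17 in FR3 Klrg1- cells, against 8.80 and 8.88 in FR1 cells, at -0.66 ± 0.12 (adjusted p = 0.00233 by limma). Against FR2 cells, the elongation reductase gene Hsd17b12 was higher in FR3 Klrg1- cells by 0.78 ± 0.16, and Slc25a20, the carnitine carrier that brings fatty acids into mitochondria for oxidation, was higher by 0.55 ± 0.13 (adjusted p = 0.0119 and 0.0263 by limma). Acss2, Hsd17b12 and Slc25a20 each lost their call against FR2 without 1 or more of the 4 arrays, with adjusted p up to 0.283 by limma.

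Between FR2 and FR1 cells, 5 of the 45 related genes fell and 0 rose, against 2.3% and 1.96% of all genes. They were Acss2, the mitochondrial reductase gene Mecr (-0.63 ± 0.13), the elongation gene Hacd2 (-0.56 ± 0.14), the mitochondrial thiolase gene Acaa2 (-0.66 ± 0.13) and Fntb (-0.65 ± 0.14). Each of these 5 was lost without 1 or more of the arrays compared. Between FR3 Klrg1+ and FR3 Klrg1- cells, Pdss2 of ubiquinone side chain synthesis was higher by 0.73 ± 0.19 and Hsd17b12 was at -0.77 ± 0.20 (adjusted p = 0.0381 and 0.0416 by limma). Pdss2 measured 7.12 in FR3 Klrg1+ cells, against 6.30 and 6.48 in FR3 Klrg1- cells, and Hsd17b12 measured 7.31 in FR3 Klrg1+ cells, against 8.05 and 8.09 in FR3 Klrg1- cells. The Pdss2 call held in 10 of 15 alternatives and the Hsd17b12 call in 7 of 15. Without FR3 Klrg1- replicate 3 their adjusted p were 0.0881 and 0.0584 by limma, and without replicate 4 Hsd17b12 was at 0.0576.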

How the data were processed

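RNA of sorted splenic regulatory T cells was amplified from 20 to 50 ng and measured on Affymetrix Gene ST 1.0 mouse chips, per the labels. The deposited values are log2 intensities made by the authors with RMA, per the submitters' processing notes. The RMA version, and whether all arrays were normalized together, are not given in the sources used here.

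Of 35556 probe sets, 21789 had 1 gene symbol, 1621 several and 12146 were not in the probe table, which comes from the platform annotation and may hold old symbols. For each gene the probe set brightest over the 9 grouped arrays was kept, giving 19938 genes with no intensity filter. limma 3.58.1 in R 4.3.3 fitted 1 model with a mean per group and array set, moderated variances, and Benjamini-Hochberg adjustment over all genes at 0.05. Array sets were read from correlations between arrays, since no label names a batch. An SE comes from that fit, with 10.6 prior degrees of freedom. The script was tested on simulated data. Alternatives are described in the closing section. The number of arrays limits precision.

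All members are named. Members past the threshold in a group comparison are given by array, and of each related list the called genes, up to 4 by size. The members and lists were chosen with earlier results of these data known. The step contrast, the counts of groups that do not overlap and the separate fit of each probe set were added after seeing the data.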

Additional observations from a re-analysis of the deposited data

How the results depend on the processing

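Each of the 12 calls of members in the 4 group comparisons was refitted under 15 or 16 alternative settings, which gave 191 refits in all. Of these refits, 189 kept their sign and 147 stayed past the threshold. These tallies overstate how stable the calls are. Leaving out an array from outside a comparison could not change its log2 difference, only the estimate of the spread. The 2 that changed sign were Scd2 with the array set left out, at -0.31 against FR1 and -0.19 against FR2. Leaving out the set gave 439, 55, 52 and 22 called genes for FR3 Klrg1- against FR1, FR3 Klrg1- against FR2, FR2 against FR1 and FR3 Klrg1+ against FR3 Klrg1-, where 1632, 948, 850 and 989 were called with it. It gave 1, 0 and 0 called members for FR3 Klrg1- against FR1, FR3 Klrg1- against FR2 and FR3 Klrg1+ against FR3 Klrg1-. In the same order, sterol medians were -0.45, -0.27 and -0.23, and fatty acid medians -0.21, -0.094 and -0.32. FR2 against FR1 had 1331 called genes and 2 members on the first set alone, 1401 and 2 without genes under the 40th percentile, and 1 member with array weights. That percentile filter moved the fatty acid median between the sets to -0.76, and quantile normalization moved the sterol median between them to -0.23. Array weights gave 1618 called genes for FR3 Klrg1- against FR2 and 0 members for FR3 Klrg1+ against FR3 Klrg1-. The cause of these shifts was not tested. Leaving out 1 array at a time, in the order of comparisons above and with replicates 3 and 4 against 1 and 2 of FR3 Klrg1- last, gave 910 to 2063, 302 to 1318, 253 to 1331, 721 to 1553 and 5698 to 7527 called genes. It gave 2 to 7, 1 to 5, 0 to 2, 0 to 2 and 14 to 20 called members. Sterol medians ran from -0.41 to -0.32, -0.19 to -0.13, -0.24 to -0.12, -0.12 to 0.067 and -0.43 to -0.19. Fatty acid medians ran from -0.0027 to 0.12, -0.032 to 0.13, -0.10 to 0.01, -0.14 to 0.077 and -0.36 to -0.16. The labels do not say whether same-numbered arrays of the first set came from the same mice. Differences of replicate 1 minus replicate 2 correlated at 0.02 for FR3 Klrg1- and FR2, 0.14 for FR3 Klrg1- and FR1 and 0.18 for FR2 and FR1. These low values cannot settle whether the arrays were paired. With the replicate block, 1550, 812 and 750 genes and 7, 4 and 0 members were called in the first 3 comparisons.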

Other observations

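Among the related lipid genes outside the 33, some also passed when the 2 steps were set against each other. In the contrast of the step from FR2 to FR3 Klrg1- minus the step from FR1 to FR2, chosen after the data were seen, 4 of the 45 related lipid genes passed in limma, where 2.67% of all genes did. They were Hsd17b12 of elongation (1.38, adjusted p = 0.0183), the carnitine carrier gene Slc25a20 (1.03, adjusted p = 0.0288), Mecr of mitochondrial fatty acid synthesis (0.99, adjusted p = 0.0334) and Acaa2 of oxidation (0.93, adjusted p = 0.0404). Hsd17b12 measured 8.62 and 8.41 in FR3 Klrg1- cells, 7.57 and 7.90 in FR2 cells and 8.11 and 8.56 in FR1 cells. Slc25a20 measured 8.43 and 8.28 in FR3 Klrg1- cells, 7.73 and 7.88 in FR2 cells and 8.33 and 8.23 in FR1 cells. Both were lower in FR2 arrays than in any array of the other 2 groups of the first set. A value above 0 in this contrast already means a FR2 mean below the average of the other 2 groups. The array pattern is therefore no separate support.

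The array with conflicting labels, titled FR3 but described with the markers of FR1, belonged to no comparison. It correlated at 0.973 to 0.975 with the second set and at 0.904 to 0.917 with the first. Of the 32 measured members, 10 lay within the range of the 3 second-set arrays, 10 below it and 12 above it. The matching shares of all genes were not counted, so these numbers do not set the members apart from other genes. The array's values were 5.80 for Idi1, 6.36 for Scd2, 6.12 for Abca1 and 8.25 for Abcg1, genes picked after their values were seen.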
